A study of Mus musculus with 9 samples.

Results

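The immunity-related GTPases (IRGs) are interferon-inducible GTP-binding proteins of mouse cells, and 7 of their genes were followed: Irgm1, Irgm2, Igtp, Iigp1, Tgtp1, Tgtp2 and Ifi47. They were taken by gene symbol as named members of the family, and earlier results of these data were known when they were chosen. All 7 were among the 18639 gene entries of the deposited files, and all 7 were among the 13829 entries that passed the filter on low values (1 TPM or more in at least 3 libraries) and were tested. TPM is a transcript level corrected for gene length and for the library total.

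IRG proteins defend mouse cells against pathogens that live inside vacuoles, such as Toxoplasma gondii and Chlamydia trachomatis. Regulatory IRGs (Irgm1, Irgm2 and Igtp, also called Irgm3) sit on the membranes of the cell's own organelles and hold the effector IRGs in the inactive, GDP-bound state. Effector IRGs (Iigp1 or Irga6, Tgtp1 and Tgtp2 or Irgb6, and Ifi47 or Irgd) load onto the pathogen vacuole and take part in its rupture. Interferon-gamma is their best known inducer, through GAS and ISRE elements of their promoters, and type I interferons induce them as well. In the mouse brain the family is known from infection with Toxoplasma, where interferon-gamma from T and NK cells acts on resident cells.

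RNA was sequenced from tumour tissue of mouse brains at day 5 after resection, and the source is labelled CT2A, a mouse glioma line. ThTC, the first of 3 groups, received cells that secrete IFNβ and GM-CSF. GFP-TC received the control cells, and the group sECM only received neither kind of cell by its label. Each group held 3 libraries, named here by group and number, and all 9 shared the tumour line, the resection and the day. The labels do not spell out sECM or TC, do not give the parent cell of ThTC and GFP-TC, and name no animals, so the p-values reflect the spread among these libraries alone, which may be technical. The labels state 4.47 Gb of bases per sample, but TPM keeps no read depth, so no counting error can be given.

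The libraries differed in tissue make-up within groups. All 8 neuron markers were detected, and their summed level was 107 to 1180 TPM with ThTC, 71.6 to 984 TPM with GFP-TC and 164 to 285 TPM with sECM only. GFP-TC 1 had the lowest mean level of the T cell, NK cell, macrophage and neuron markers of the 9 libraries. The 8 proliferation markers summed to 801 to 1081 TPM with ThTC, 932 to 1055 TPM with GFP-TC and 984 to 1099 TPM with sECM only. In bulk tissue, fewer cells of a type and less RNA per cell cannot be told apart. The members' fold changes and the list medians against GFP-TC are also given without GFP-TC 1.

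Promoter sequence is shown first because 4 of the members share a compact arrangement of both interferon elements just before the start site. Windows of 250 bases before to 50 bases after the start were read from RefSeq (GRCm38.p6) for 6 of the 7 members, all but Iigp1. They were searched on both strands for an ISRE core, spelled GAAANNGAAA, and for a GAS element, spelled TTCNNNGAA, which reads the same on both strands. The ISRE core was present in 5 of the 6 windows and the GAS element in 4 of the 6, against 3.44% and 8.3% of 32851 mouse promoter windows. After the windows had been seen, the 2 elements were joined into 1 search, a GAS element that ends 2 bases before an ISRE core. That joint arrangement was in 5 of the 32851 windows (0.0152%), those of Igtp, Irgm2, Tgtp1, Tgtp2 and Gm12185, a further IRG gene. A match is a description of letters, and no binding was measured.

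The stretches below are 52 bases each, 5′ to 3′ on the strand of the gene. In the windows of Irgm2, Igtp, Tgtp1, Tgtp2 and Gm12185 the first capitals mark the GAS match and the second the ISRE core, and in Irgm1 the capitals mark 2 overlapping ISRE cores.
Irgm1: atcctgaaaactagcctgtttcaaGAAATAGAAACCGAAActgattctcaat
Irgm2: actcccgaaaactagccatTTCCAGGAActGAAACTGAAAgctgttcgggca
Igtp: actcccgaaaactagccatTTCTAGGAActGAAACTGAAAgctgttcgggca
Tgtp1: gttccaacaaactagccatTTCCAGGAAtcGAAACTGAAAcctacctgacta
Tgtp2: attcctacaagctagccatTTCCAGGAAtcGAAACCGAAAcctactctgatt
Gm12185: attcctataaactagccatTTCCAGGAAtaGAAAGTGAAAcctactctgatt

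The Irgm2 and Igtp stretches were identical at 51 of 52 bases, and those of Tgtp1 and Tgtp2 at 42 of 52. Irgm1 had 26 of 52 bases in common with Igtp and no GAS match in its window. These counts compare equal positions without gaps, so a run that Irgm1 and Igtp share at shifted positions is missed. Ifi47 had none of these matches in its window. On GRCm38.p6 the printed stretches lie at chr11:48871423-48871474 (minus strand) for Irgm1, chr11:58214883-58214934 (plus) for Irgm2 and chr11:58199492-58199543 (plus) for Igtp. Those of Tgtp1, Tgtp2 and Gm12185 lie on the minus strand at chr11:48992302-48992353, chr11:49064261-49064312 and chr11:48927236-48927287.

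**Figure D1:**
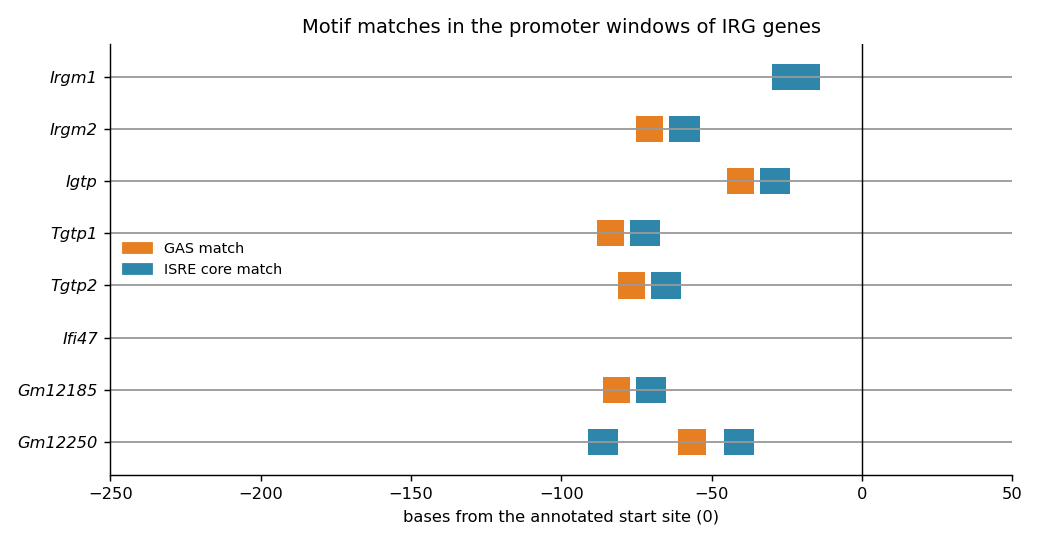
Matches of the GAS element (orange) and the ISRE core (blue) in the promoter windows of 6 IRG members and of Gm12185 and Gm12250, in bases from the annotated start site. In Irgm2, Igtp, Tgtp1, Tgtp2 and Gm12185 the GAS match lies 2 bases before the ISRE core, and the Ifi47 window holds neither.

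Among the regulatory members, Irgm1 (chromosome 11, 48865245 to 48871420, GRCm38.p6) had the highest level of the 7 members in every library. Irgm1 was at 357, 535 and 508 TPM in ThTC 1, 2 and 3, at 189, 525 and 457 TPM in GFP-TC 1, 2 and 3, and at 295, 227 and 307 TPM in sECM only 1, 2 and 3. All 3 ThTC libraries lay above all 3 sECM only libraries, whereas GFP-TC held a library lower than any other beside 2 at the level of ThTC. Igtp (58199556 to 58207592), whose protein is found on the endoplasmic reticulum, was at 234, 448 and 413 TPM with ThTC, at 90.2, 342 and 325 TPM with GFP-TC, and at 191, 140 and 204 TPM with sECM only. The order of the libraries was much the same, with ThTC 2 highest and GFP-TC 1 lowest. Irgm2 (58214977 to 58222783), whose protein is found at the Golgi, was at 103, 187 and 167 TPM with ThTC, at 46.8, 150 and 155 TPM with GFP-TC, and at 90.8, 59.7 and 99.1 TPM with sECM only. ThTC 1 exceeded the highest sECM only library by little, and both GFP-TC 2 and GFP-TC 3 lay among the ThTC values. Igtp and Irgm2 overlap in the GENCODE annotation of the same build, and 4.42% of the 100-base words of Igtp occur in Irgm2, so reads of these 2 genes may be partly exchanged.

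Of the effector members, Iigp1 (chromosome 18, 60373616 to 60392634), the best studied effector on the Toxoplasma vacuole, was at 173, 331 and 303 TPM with ThTC, at 56.1, 217 and 243 TPM with GFP-TC, and at 137, 85.5 and 148 TPM with sECM only. The lowest ThTC library was again above the highest sECM only library. Tgtp1 and Tgtp2 are near-identical copies on chromosome 11 (48985329 to 48992246 and 49057196 to 49064212), and 80.0% of the 100-base words of the Tgtp1 transcript occur in Tgtp2. The split of reads between these copies depends on how the authors counted, so each value alone is uncertain. Tgtp1 had the lowest level of the 7 members in every library, at 72.0, 153 and 124 TPM in ThTC, 16.6, 94.6 and 97.5 TPM in GFP-TC, and 57.6, 30.02 and 47.9 TPM in sECM only. Tgtp2 was at 171, 320 and 268 TPM with ThTC, at 76.9, 229 and 214 TPM with GFP-TC, and at 142, 94.3 and 156 TPM with sECM only. The sum of the 2 copies averaged 370 ± 117 TPM (SD, n = 3) for ThTC, 243 ± 129 TPM for GFP-TC and 176 ± 44.8 TPM for sECM only. For each copy and for their sum, ThTC lay wholly above sECM only, and GFP-TC spanned the range from below sECM only to the ThTC values.

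Ifi47 (chromosome 11, 49076587 to 49096987), the effector of the Irgd branch, was at 159, 299 and 240 TPM with ThTC, at 80.9, 174 and 186 TPM with GFP-TC, and at 136, 102 and 147 TPM with sECM only. For 6 of the 7 members, all but Irgm1, ThTC 1 was the only ThTC library among the GFP-TC values. GFP-TC 1 was the lowest library for 7 of 7 members, as it was for 23.4% of tested genes. ThTC 2 was the highest for 7 of 7, against 5.26% of tested genes.

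**Figure D2:**
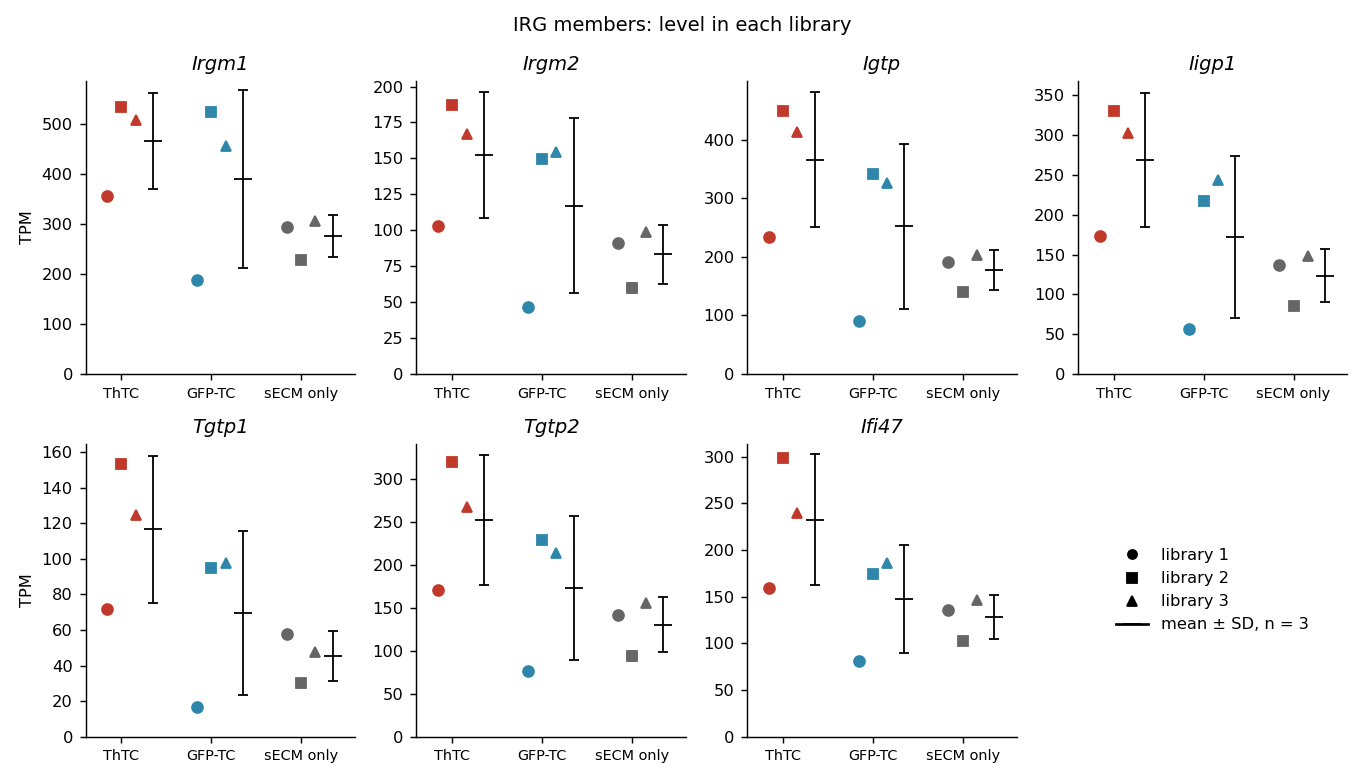
TPM of the 7 IRG members in each of the 9 libraries by group, with the symbol giving the library number and the bar the mean ± SD (n = 3). For every member the 3 ThTC libraries lie above the 3 sECM only libraries, and GFP-TC 1 is the lowest of the 9.

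The comparison of ThTC with sECM only set the treatment with secreting cells against no cells. All 7 members had higher means with ThTC, with folds of 1.68 for Irgm1 to 2.51 for Tgtp1 on the log2(TPM + 1) scale, and the groups did not overlap for 7 of 7, where 5.03% of tested genes lay wholly higher with ThTC. Irgm1 averaged 467 ± 96.0 TPM in ThTC libraries and 276 ± 42.7 TPM in sECM only libraries, and Tgtp1 averaged 117 ± 41.1 TPM against 45.2 ± 14.0 TPM in these groups (SD, n = 3 each). The median log2 fold change of the members was 0.93, beside -0.03 over all tested genes, of which 44.4% had higher means with ThTC. None of the members passed limma's moderated test after Benjamini-Hochberg adjustment over all tested genes (adjusted p = 0.69 for each), and 0.0% of tested genes did. Before adjustment only Ifi47, 1 of 7, had a p under 0.05 (log2 fold change 0.82, SE 0.34, limma unadjusted p = 0.0415), against 1.54% of tested genes with such a p and higher with ThTC. That count depended on the libraries in the fit. It was 7 of 7 without GFP-TC 1, beside 4.03% of tested genes, although that library belongs to neither group and the fold changes stayed as they were. It was also 7 with the compared groups alone or with the brain tissue covariate. Of 13829 tested genes, 506 and 564 then had such a p and were higher with ThTC. It was 6 with median-of-ratios scaling (410 tested genes). With a block on the library number it was 5 in all 9 libraries (289 genes) and 7 in the 6 libraries compared (416 genes). Without ThTC 1 it was 5 (479 genes), and without ThTC 2, ThTC 3 or any 1 of the sECM only libraries it was 0 (72 to 173 genes). No member passed the adjustment in any of these fits. The 95% interval of Tgtp1 ran from -0.13 to 2.79 and that of Irgm1 from -0.07 to 1.56, and both include 0. The median lay between 0.71 (without sECM only 2) and 1.19 (without ThTC 1) when 1 library was left out. All 7 members then stayed apart, as they had to, since removing a library cannot make separated groups overlap.

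ThTC against GFP-TC asks what the secreting cells change relative to control cells. All 7 members had higher means with ThTC, with log2 fold changes of 0.37 for Irgm1, 0.52 for Irgm2, 0.65 for Tgtp2, 0.70 for Igtp and for Ifi47, 0.84 for Iigp1 and 1.03 for Tgtp1. Tgtp1 averaged 117 ± 41.1 TPM in ThTC libraries and 69.5 ± 45.9 TPM in GFP-TC libraries, and Ifi47 averaged 233 ± 70.2 TPM in ThTC libraries and 147 ± 57.7 TPM in GFP-TC libraries (SD, n = 3 each). The median was 0.70 for the members and -0.10 for all tested genes, of which 33.8% had higher means with ThTC. The groups overlapped for every member, so 0 of 7 lay wholly higher, as did 2.2% of tested genes. In limma 0 of 7 members passed the adjustment, with adjusted p of 0.36 (Ifi47) to 0.65 (Irgm1), 0 had an unadjusted p under 0.05 (2.03% of tested genes had such a p and were higher with ThTC), and 0.0% of tested genes passed. With median-of-ratios scaling of the libraries Ifi47 lay wholly higher with ThTC, 1 of 7 members beside 6.4% of tested genes.

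Most of that difference came with 1 library. Without GFP-TC 1 the median log2 fold change of the members was 0.15, with 0.32 for Ifi47 and values of -0.09 for Irgm1 and -0.04 for Irgm2, and the smallest adjusted p of the members in limma was 0.49. The median over all tested genes was then -0.21. Means were higher with ThTC for 5 of 7 members, beside 23.8% of tested genes. Without ThTC 1 the median was 0.95, and 6 of 7 members, all but Irgm1, lay wholly higher with ThTC, beside 6.96% of tested genes. Levels of several marker lists were low in GFP-TC 1 as well. All 9 T cell markers tested, all 10 NK and cytotoxic markers and 8 of 10 macrophage markers were lowest in that library, beside 23.4% of tested genes. None of these markers was at 0 in every library, and their part in the difference was not tested. Also lowest there were 7 of 8 astrocyte, 6 of 8 neuron and 6 of 7 dendritic cell markers. It was 2 of 8 for oligodendrocyte and for endothelial markers and 0 of 8 for proliferation markers.

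Deviations from the group means correlated between ThTC and GFP-TC at 0.743 and 0.874 for numbers 1 and 3. Number 2 gave only 0.124, below ThTC 2 with GFP-TC 1 at 0.382. Libraries of the same number were treated as pairs on these values, although no label explains the numbers. The paired results thus rest on a pairing taken from these same data. The ThTC library was higher in all 3 pairs for 7 of 7 members, against 12% of tested genes. Irgm1 gave the closest pair, with 535 TPM in ThTC 2 against 525 TPM in GFP-TC 2. With the replicate block in the 6 libraries, limma gave 7 of 7 members an unadjusted p under 0.05, where 5.81% of tested genes had such a p and were higher with ThTC. After adjustment 0 of 7 members were called (smallest adjusted p = 0.0893), while 8 genes (0.0578%) were called over the whole table.

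GFP-TC against sECM only asks what the control cells alone change. All 7 members had higher means with GFP-TC, as did 71.8% of tested genes. The members' log2 fold changes were 0.12 (Ifi47) to 0.38 (Irgm1), with a median of 0.295 beside 0.077 over all tested genes. Igtp, for example, averaged 252 ± 141 TPM in GFP-TC libraries and 178 ± 34.0 TPM in sECM only libraries (SD, n = 3 each), with a 95% interval of the log2 fold change from -0.83 to 1.42. The groups overlapped for all 7 members, so 0 of 7 lay wholly higher, as did 3.15% of tested genes. In limma 0 of 7 members passed the adjustment (adjusted p = 0.997 each), 0 had an unadjusted p under 0.05 (0.499% of tested genes did with GFP-TC higher), and 0.0% of tested genes passed. Without GFP-TC 1 the median was 0.895 and 7 of 7 members lay wholly higher with GFP-TC, but so did 31.7% of tested genes, and 6 of 7 members had an unadjusted p under 0.05, beside 7.06% of tested genes with such a p and higher with GFP-TC. Without GFP-TC 2 the median was -0.035 and without GFP-TC 3 it was 0.00, so this direction rests on which library is kept.

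**Figure D3:**
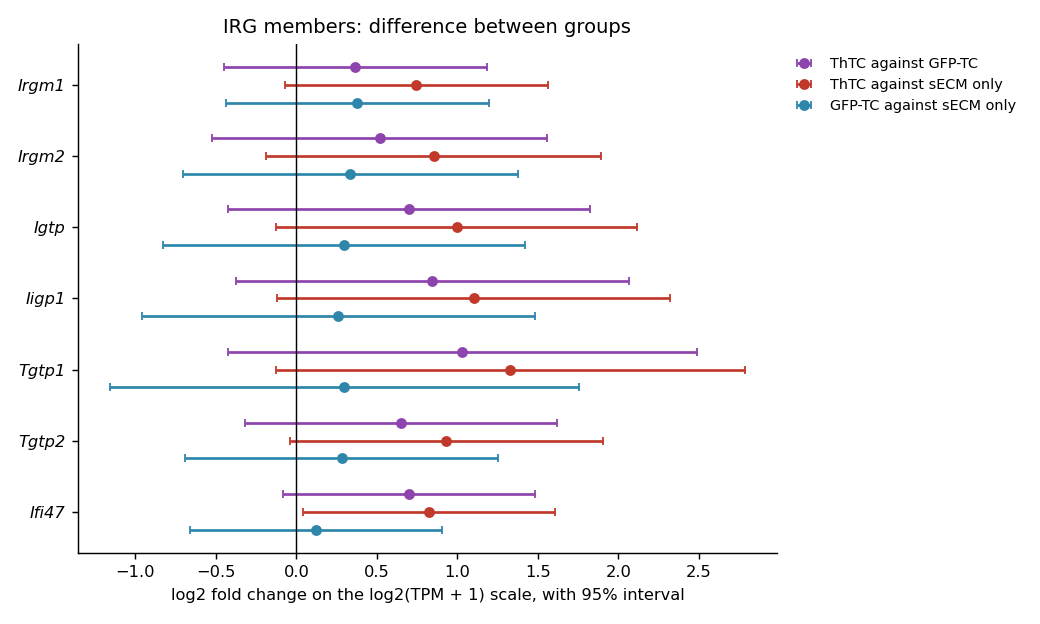
Log2 fold change of each IRG member on the log2(TPM + 1) scale in the 3 comparisons, with the 95% interval from limma over all 9 libraries. The points of ThTC against sECM only lie between 0.75 and 1.33, and the interval of Ifi47 is the only one that leaves out 0.

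The family moved as a unit from library to library. Over the 9 libraries the 21 pairs of members had a Pearson r of 0.937 to 0.994 and a Spearman rho of 0.933 to 1.0, and r was 0.916 to 0.989 without GFP-TC 1 and ThTC 2, the libraries farthest from the median. These are descriptions over libraries that differ in tissue make-up and have a fixed TPM total. The summed TPM of the 7 members was 1270, 2274 and 2023 in ThTC 1, 2 and 3, 557, 1731 and 1678 in GFP-TC 1, 2 and 3, and 1049, 739 and 1109 in sECM only 1, 2 and 3. The means were 1856 ± 523 TPM for ThTC, 1322 ± 663 TPM for GFP-TC and 966 ± 199 TPM for sECM only (SD, n = 3). In GFP-TC the other 2 libraries lay close together, and GFP-TC 1 lay far below them.

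Members differed in how far they moved. Tgtp1 spanned 9.24-fold between its lowest and highest library, Iigp1 5.89-fold and Igtp 4.97-fold, while Irgm1 spanned 2.83-fold. Over 11196 tested genes averaging 5 TPM or more, this span had a median of 1.53-fold and a 90th percentile of 3.50-fold, so 6 of 7 members exceeded that percentile and Irgm1 did not. These spans start from GFP-TC 1, and without it they were 5.10-fold for Tgtp1, 3.87-fold for Iigp1, 3.21-fold for Igtp and 2.35-fold for Irgm1, beside a 90th percentile of 2.76-fold, which the same 6 members exceeded. On the log2 scale, a change of 1 in the mean of the members went with 1.39 in Tgtp1, 1.16 in Iigp1, 1.05 in Igtp, 0.94 in Irgm2, 0.93 in Tgtp2, 0.78 in Ifi47 and 0.75 in Irgm1. The share of Irgm1 in the summed level was therefore smallest in ThTC 2 (23.6%) and largest in GFP-TC 1 (34.0%), and that of Tgtp1 largest in ThTC 2 (6.73%) and smallest in GFP-TC 1 (2.98%).

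The order of the members' levels was nearly fixed. Irgm1, then Igtp, stood at the top and Irgm2, then Tgtp1, at the bottom in each of the 9 libraries, and the middle places of Iigp1, Tgtp2 and Ifi47 changed between libraries. With ThTC, Iigp1 averaged 269 ± 83.9 TPM, Tgtp2 253 ± 75.8 TPM and Ifi47 233 ± 70.2 TPM (SD, n = 3), and this order held in each ThTC library. The SD is that between libraries and does not measure the difference between genes of the same library. In the other groups the order of the same 3 genes changed between libraries. Their means were 172 ± 101, 173 ± 83.7 and 147 ± 57.7 TPM with GFP-TC, and 123.5 ± 33.4, 131 ± 32.4 and 128 ± 23.2 TPM with sECM only.

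The balance between effector and regulatory members was tilted most toward effectors in the ThTC libraries. The summed TPM of the 4 effector genes over that of the 3 regulatory genes was 0.829, 0.942 and 0.859 in ThTC 1, 2 and 3, 0.707, 0.704 and 0.791 in GFP-TC 1, 2 and 3, and 0.820, 0.731 and 0.818 in sECM only 1, 2 and 3. All 3 ThTC values lay above all 6 others, ThTC 1 by little. The total did not order this ratio on its own, since GFP-TC 2, with 1731 TPM in all, had the lowest ratio, and ThTC 1, with 1270 TPM, had a higher one. The ratio was formed after the values had been seen and has no test. Tgtp1 over Tgtp2 was 0.421, 0.478 and 0.465 with ThTC, 0.216, 0.414 and 0.456 with GFP-TC, and 0.406, 0.318 and 0.307 with sECM only, and is subject to the sharing of reads between these copies.

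**Figure D4:**
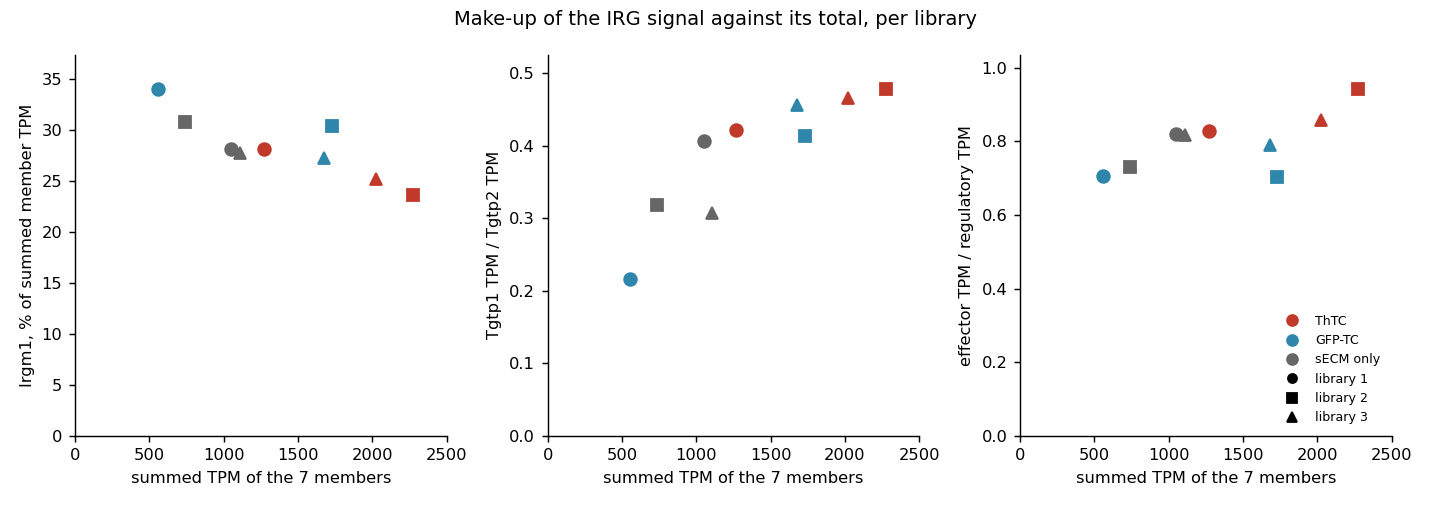
Share of Irgm1 in the summed TPM of the 7 IRG members (left, %), Tgtp1 TPM over Tgtp2 TPM (middle), and summed effector TPM over summed regulatory TPM (right), against the summed TPM of the members in each library; colour gives the group and symbol the library number. The ThTC libraries lie at 0.829 to 0.942 in the right panel, above GFP-TC and sECM only.

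Further IRG genes were taken from a list of 20 symbols, of which 10 were in the files and 9 were tested. Means were higher with ThTC for 8 of the 9 against GFP-TC and for 8 of the 9 against sECM only, with medians of 0.41 and 0.68 on the log2 scale, and 9 of 9 were higher with GFP-TC than with sECM only (median 0.21), where 71.8% of all tested genes were. Against GFP-TC without GFP-TC 1, means were higher with ThTC for 3 of the 9 (median -0.07), beside 23.8% of tested genes. None was called in any comparison in limma (adjusted p of 0.32 or more). Gm12250, listed in RefSeq as Irgb10, an effector that acts on bacteria, and annotated in GENCODE as a processed pseudogene, was at 60.9, 116 and 126 TPM in ThTC, 14.5, 71.1 and 88.4 TPM in GFP-TC, and 47.3, 23.97 and 56.7 TPM in sECM only. ThTC lay wholly above sECM only for Gm12250, with ThTC 3 the highest library. Gm12185, whose promoter stretch is printed above, was at 8.73, 17.1 and 18.7 TPM in ThTC, 2.49, 11.7 and 14.4 TPM in GFP-TC, and 8.25, 3.69 and 9.43 TPM in sECM only, and it overlaps Tgtp1 in GENCODE. Gm4951, Gm4841, Gm5431, F830016B08Rik, 9930111J21Rik1 and 9930111J21Rik2 had log2 fold changes of 0.24 to 0.83 for ThTC against GFP-TC with all libraries and of 0.39 to 1.19 for ThTC against sECM only.

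Irgq, a divergent member of the family, was the exception. Irgq was at 31.1, 28.2 and 36.7 TPM in ThTC, 35.6, 48.1 and 45.1 TPM in GFP-TC, and 35.5, 37.1 and 42.1 TPM in sECM only. Its mean was lower with ThTC than with GFP-TC (log2 fold change -0.41, limma unadjusted p = 0.0195, adjusted p = 0.32), and it did not follow the members over libraries (r = -0.02, n = 9). That direction was common, since 33.8% of tested genes had higher means with ThTC than with GFP-TC. An unadjusted limma p under 0.05 with a lower mean in ThTC was found for 1784 of 13829 tested genes. Irgc1, the testis member, lay at 0 to 0.26 TPM, below the filter, and did not separate between ThTC and GFP-TC (exact permutation p = 1, two-sided).

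The 10 tested genes whose levels over the 9 libraries were most like the mean of the members were Gsdmd, Vwa5a, Gbp2, Tapbp, Gbp3, Gbp4, Tlr13, Gm12250, Il12rb1 and Gbp10, out of 11195 genes averaging 5 TPM or more. Their Pearson r on log2(TPM + 1) ran from 0.983 to 0.993, and from 0.962 to 0.990 without GFP-TC 1 and ThTC 2. This is a description over libraries that differ in composition. Gsdmd, the pore-forming gasdermin of inflammatory cell death, was at 36.01, 48.3 and 48.4 TPM in ThTC, 22.7, 43.7 and 42.5 TPM in GFP-TC, and 33.3, 29.0 and 34.6 TPM in sECM only. Gbp2, a guanylate-binding protein, was at 369, 729 and 627 TPM in ThTC, 119, 513 and 541.5 TPM in GFP-TC, and 306, 223 and 292 TPM in sECM only. Tapbp encodes tapasin of the class I peptide loading complex, Tlr13 a mouse receptor for bacterial ribosomal RNA, and Il12rb1 a receptor chain for IL-12 and IL-23. Irf1 stood at rank 24 (r = 0.972), while the type I interferon-stimulated genes Ifi27l2a and Isg15 stood at ranks 2418 and 2587 (r = 0.552 and 0.528). Isg15 was chosen after its values were seen. The mean level of the 28 type I interferon-stimulated genes tested had r = 0.851 with the members, and r = 0.855 without GFP-TC 1 and ThTC 2.

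The inducers of the family were measured in the same libraries. Ifng, which encodes interferon-gamma, was low, at 4.37, 6.14 and 4.50 TPM in ThTC, 1.55, 3.89 and 4.44 TPM in GFP-TC, and 3.22, 2.76 and 2.03 TPM in sECM only. ThTC lay wholly above sECM only for Ifng (log2 fold change 0.71, limma unadjusted p = 0.0461, adjusted p = 0.69) and overlapped GFP-TC. Mouse Ifnb1 lay at 0 to 0.33 TPM in all libraries, below the filter. It averaged 0.15 ± 0.01 TPM in ThTC libraries and 0.213 ± 0.0751 TPM in GFP-TC libraries (SD, n = 3 each), with p = 0.1 in a two-sided exact permutation test, which cannot go lower with 3 libraries a group. The labels do not give the IFNβ sequence that the ThTC cells carry, so these values need not include it. Of 6 ligand and receptor genes tested, 5 had higher means with ThTC than with GFP-TC and 5 than with sECM only, with medians of 0.16 and 0.175, and without GFP-TC 1 it was 4 of 6 against GFP-TC (median 0.056).

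Irf1, an interferon-induced factor that binds ISRE elements, was at 169, 253 and 262 TPM in ThTC, 103, 255 and 241 TPM in GFP-TC, and 161, 139 and 169 TPM in sECM only. For Irf1, ThTC 1 lay beside the sECM only libraries and GFP-TC 1 below them. Of 15 signalling genes, 9 had higher means with ThTC than with GFP-TC (median 0.16) and 13 than with sECM only (median 0.24), with 0 called in limma (adjusted p of 0.51 or more). Without GFP-TC 1 it was 3 of 15 against GFP-TC (median -0.145). Irf8, a factor of myeloid cells, had a log2 fold change of 0.48 against GFP-TC and 0.61 against sECM only, and Ptpn2, a phosphatase that restrains cytokine signalling, of -0.11 and -0.18.

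Guanylate-binding proteins, the other interferon-inducible GTPases of the pathogen vacuole, moved with the IRGs. Their 10 tested genes all had higher means with ThTC, both against GFP-TC (median 0.53) and against sECM only (median 0.76), and 4 of 10 lay wholly above sECM only, as did 5.03% of tested genes. The direction against GFP-TC rested on GFP-TC 1, since without it 3 of 10 had higher means with ThTC (median -0.14). Their mean level over libraries had r = 0.988 and rho = 0.967 with that of the IRG members (n = 9), and r = 0.989 without GFP-TC 1 and ThTC 2. Gbp2b was at 1.69, 5.70 and 6.47 TPM in ThTC, 0.18, 1.35 and 2.12 TPM in GFP-TC, and 1.33, 0.42 and 0.80 TPM in sECM only, with log2 fold changes of 1.32 and 1.504 for ThTC (limma unadjusted p = 0.0242 and 0.0134, adjusted p = 0.32 and 0.69).

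Lists of partner genes of the IRG system showed much smaller median differences. The ubiquitin-like ATG8 conjugation machinery, which guides IRG and guanylate-binding proteins to vacuoles, had medians of 0.067 against GFP-TC and 0.105 against sECM only over 12 tested genes. Gabarap, an ATG8 protein, was at 483, 542 and 527 TPM in ThTC, 451, 461 and 469 TPM in GFP-TC, and 497, 487 and 468 TPM in sECM only. The ThTC libraries lay wholly above GFP-TC for Gabarap (log2 fold change 0.17, limma unadjusted p = 0.0484, adjusted p = 0.33). Over 11 genes of vacuole tagging and effector partners the medians were 0.026 and -0.003. Without GFP-TC 1 the medians against GFP-TC were 0.031 for ATG8 conjugation and -0.14 for vacuole tagging. Lgals3, a galectin that marks broken vacuoles and is abundant in macrophages, had a log2 fold change of 0.89 against GFP-TC (limma unadjusted p = 0.0343, adjusted p = 0.32). Traf6, a ubiquitin ligase of vacuole tagging, lay wholly lower with ThTC than with GFP-TC (-0.32) and than with sECM only (-0.18). Of 13829 tested genes, 2333 lay wholly lower with ThTC than with GFP-TC and 1676 than with sECM only.

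A pair of lists of interferon targets stood beside the family. Of 18 other interferon-gamma-inducible genes, 18 had higher means with ThTC than with GFP-TC (median 0.84) and 18 than with sECM only (median 0.88), and 0 were called in limma (adjusted p of 0.32 or more). Over all tested genes, 33.8% and 44.4% had higher means with ThTC in these comparisons. Psmb9, a subunit of the immunoproteasome, was at 324, 431 and 380 TPM in ThTC, 183, 253 and 256 TPM in GFP-TC, and 280, 194 and 270 TPM in sECM only, so that ThTC lay wholly above both groups, which no IRG member did. Of 28 type I interferon-stimulated genes, 22 had higher means with ThTC than with GFP-TC (median 0.27) and 28 than with sECM only (median 0.41), and 0 were called. Without GFP-TC 1 the counts against GFP-TC were 12 of 18 (median 0.39) and 14 of 28 (median 0.019). Ifi27l2a was at 247, 285 and 286 TPM in ThTC, 147, 122 and 142 TPM in GFP-TC, and 192, 114 and 139 TPM in sECM only. In Ifi27l2a GFP-TC 1 was the highest of its group, whereas it was the lowest for each IRG member.

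**Figure D5:**
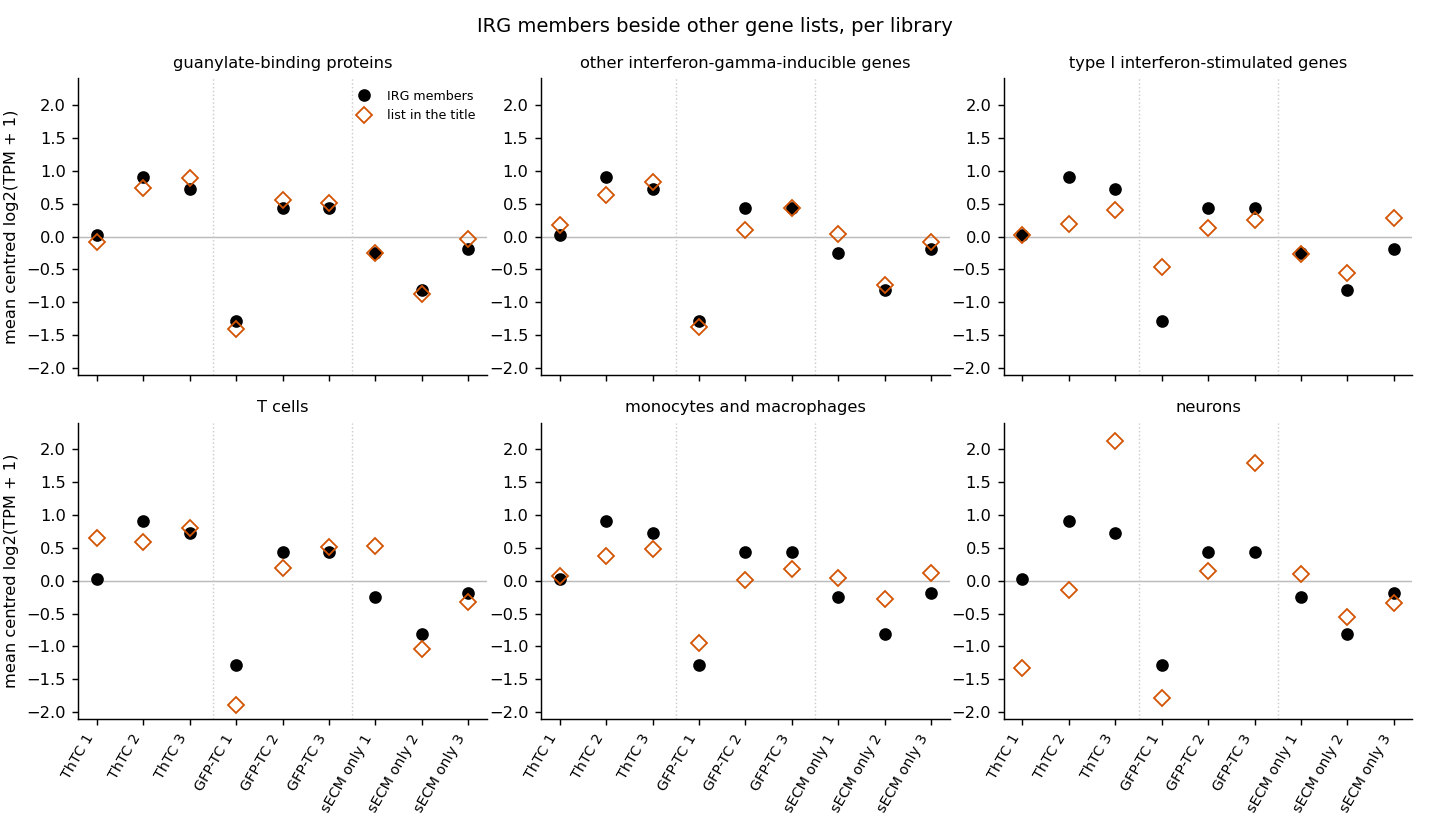
Mean centred log2(TPM + 1) of the 7 IRG members (black) and of 6 other lists (orange diamonds) in each library, by group. The guanylate-binding proteins lie close to the IRG members in the 9 libraries, while the neuron markers are highest in ThTC 3 and GFP-TC 3.

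Markers of T cells, NK cells and macrophages moved with the family too. T cell markers (9 of 10 tested) summed to 105 to 122 TPM with ThTC, 9.28 to 97.9 TPM with GFP-TC and 25.5 to 105 TPM with sECM only, with median log2 fold changes of 1.08 and 1.02 for ThTC against each. NK and cytotoxic markers (10 of 10) summed to 684 to 838 TPM with ThTC, 289.5 to 733 TPM with GFP-TC and 387 to 701 TPM with sECM only, with medians of 0.98 and 0.82. Monocyte and macrophage markers (10 of 10) summed to 1255 to 2335 TPM with ThTC, 646 to 1287 TPM with GFP-TC and 943 to 1158 TPM with sECM only, with medians of 0.54 and 0.43. Without GFP-TC 1 the medians of ThTC against GFP-TC were 0.23 for T cell, 0.37 for NK and cytotoxic and 0.13 for macrophage markers. The mean level of each list had r = 0.879, 0.918 and 0.909 with the IRG members over the 9 libraries and r = 0.784, 0.802 and 0.836 without GFP-TC 1 and ThTC 2. None of these markers was called in limma, none was at 0 in every library, and their part in the IRG levels was not tested. The other cell marker lists had r with the members from -0.613 (proliferation) to 0.78 (microglia) over the 9 libraries. It was 0.737 for astrocyte, 0.676 for neuron and 0.631 for dendritic cell markers. For dendritic cell markers r was 0.26 without GFP-TC 1. Of these, 3 of 7 tested had higher means with ThTC than with sECM only (median -0.03). Neuron and oligodendrocyte markers varied most within ThTC and within GFP-TC, and with their level as a covariate the members' medians were 0.65 for ThTC against GFP-TC and 0.79 for ThTC against sECM only, with 0 of 7 called.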

How the data were processed

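Total RNA of 9 libraries, 3 each for ThTC, GFP-TC and sECM only, was sequenced on a DNBseq platform, per the labels' protocols. The authors deposited TPM values per gene, rounded to 2 decimals, and HISAT and the builds GRCm38.p6 and mm10 are named in the submitters' processing notes; how reads were quantified and against which annotation is not given in the sources used here. Totals of TPM are fixed, so a higher level of some genes lowers the rest. Values were analysed as log2(TPM + 1), which understates changes of low genes, and tested in limma 3.58.1 (R 4.3.3) with an intensity trend, all 9 libraries in one fit, and Benjamini-Hochberg adjustment over 13829 genes at 0.05; fold changes are 2 to the power of the log2 difference on that scale. The model fit was run on simulated levels with noise drawn independently for each gene, and it recovered the set changes on average. Shifts of a whole library were not simulated. Genes below the filter were compared by exact permutation.

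The members and lists were chosen with earlier results of these data known. Named genes are the members, further IRG genes, per list and comparison up to 2 genes with the smallest p, the 10 most alike by Pearson r, and Irf1, Ifng and Ifnb1 (1 gene the rule names is not reported here); Isg15 was chosen after its values were seen. List names give how a gene is best known, and the lists share inducers.

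To check whether the numbers pair the libraries, deviations from group means over tested genes were correlated. ThTC and GFP-TC correlated at 0.743, 0.124 and 0.874 for numbers 1, 2 and 3 and were treated as paired, an assumption the labels do not state, and different numbers correlated too (ThTC 2 with GFP-TC 1 at 0.382). ThTC and sECM only gave -0.548, 0.282 and -0.205, GFP-TC and sECM only -0.527, -0.136 and -0.187, and were not. Alternatives were pseudocount 0.1, no filter, median-of-ratios scaling, the compared groups alone, replicate blocks, a brain tissue covariate and leaving out each library; applying the last to lists, spans and unadjusted counts was chosen after seeing the data. Promoter windows came from RefSeq, GRCm38.p6. Figures were drawn with matplotlib 3.10.9.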

Additional observations from a re-analysis of the deposited data

How the results depend on the processing

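The limits are 3 libraries a group, unknown depth and wide spread within GFP-TC. No member was called in limma under any setting run, so no call changed; the smallest adjusted p was 0.0893. With the replicate block in the 6 libraries of ThTC and GFP-TC, whose numbers were treated as pairs, 8 genes were called over the whole table against 0 without it. The block in all 9 libraries called 1 gene for GFP-TC against sECM only. The brain tissue covariate called 2 genes for ThTC and 1 for GFP-TC, each against sECM only. Leaving out 1 library called 0 to 1 genes in either comparison with sECM only (1 without sECM only 1 in each, and 1 without sECM only 2 for GFP-TC).

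Median-of-ratios scaling put the median of all genes for ThTC against GFP-TC at 0.02, beside -0.10 as deposited, and that of the members at 0.835, beside 0.70, and 1 of 7 members (Ifi47) then lay wholly higher with ThTC. Leaving out 1 library gave 0 to 6 members wholly higher for ThTC against GFP-TC and 0 to 7 for GFP-TC against sECM only. For ThTC against sECM only all 7 stayed apart, which was fixed in advance because removing a library cannot make separated groups overlap. The members' median then ran from 0.146 to 0.95 for ThTC against GFP-TC, from 0.714 to 1.19 for ThTC against sECM only and from -0.035 to 0.895 for GFP-TC against sECM only.

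Single members kept their direction in 110 of 112 values for ThTC against GFP-TC, 112 of 112 for ThTC against sECM only and 104 of 112 for GFP-TC against sECM only. Many of these values were fixed in advance. A fold change cannot move with no filter, the compared groups alone, a replicate block, or a library left out of the group not compared. Irgm1, for example, stayed at 0.366 for ThTC against GFP-TC in each of these settings. Over the libraries left out, the log2 fold change for ThTC against GFP-TC ran from -0.09 to 0.644 for Irgm1 and from -0.041 to 0.81 for Irgm2, both negative without GFP-TC 1. For GFP-TC against sECM only it ran from -0.035 to 0.919 for Igtp, -0.118 to 0.931 for Iigp1, -0.123 to 1.12 for Tgtp1 and -0.093 to 0.503 for Ifi47. These were negative without GFP-TC 2 (-0.035, -0.036, -0.102 and -0.046), Iigp1, Tgtp1 and Ifi47 also without GFP-TC 3, and Ifi47 without sECM only 2 (-0.033). The cause was not tested.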
